A study of Mus musculus with 18 samples.

Results

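Germ layer lineage regulators are the genes that mark and direct the first fate choices of the embryo. Of the 19259 genes that the arrays named through RefSeq, 10 were followed here, each through the probe whose mRNA accession RefSeq assigns to it. Gata4, Gata6, Sox17, Foxa2 and Afp stood for endoderm, T and Eomes for mesoderm, and Pax6, Sox1 and Nes for ectoderm. Each had 1 probe with 1 spot on the array, so no other probe of the same gene was there to compare. The genes were chosen by name and not by a rule on their measured values, but earlier results of these data were known.

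Expression was measured on 18 arrays, 3 in each of 6 groups, with the Cy3-labeled cRNA of a single sample on each array. The ES group was unirradiated murine embryonic stem cells, wild type and isolated from blastocysts, which were kept in LIF on gelatin without feeder cells. The ED group was unirradiated isogenic non-stem cells derived from them by culture without LIF, for a week or until stem cell markers were lost by the labels. By the study's methods LIF and beta-mercaptoethanol were both withdrawn, for at least 4 days. The remaining groups received 10 Gy IR and were collected early, at 15 min (ESRE from ES, EDRE from ED), or late, at 4 h (ESRL and EDRL). All groups come from the same stem cells, no factor was added to direct ED cells to a lineage, and the labels do not say whether the triplicates were separate cultures, so p-values measure the spread between these samples, which may be technical.

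In the embryo, the pluripotent epiblast gives rise to endoderm, mesoderm and ectoderm at gastrulation, when cells pass through the primitive streak. Transcription factors of the GATA, SOX, forkhead, T-box and paired box families are switched on in this process and hold cells to a fate. Stem cells in LIF can carry low levels of such factors, and cultures can hold cells that have begun to differentiate. In bulk RNA, fewer cells of a type and less RNA per cell cannot be told apart.

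A level is given throughout as the log2 signal of a spot relative to the 75th percentile of its array, so that 0 is the brightness of that percentile and 1 unit is a 2-fold difference. A level of 1 gene is not set against that of another. Genes were tested with limma on all arrays, and counting a gene as changed needed an adjusted p (Benjamini-Hochberg, over all probes tested in the comparison) under 0.05 together with a log2 difference over 1 in size. A test required all 3 arrays of one of the groups compared to have the gene well above background, and outlier spots, as marked by the scanner software, were left out. Replicates 2 and 3 of EDRE stood apart, with a 75th percentile of 875 and 1155 against 1952 to 4268 elsewhere, 24.4% and 23.8% outlier spots and 49.5% and 55.5% of probes well above background. Replicate 1 of ESRL, at 1952, was the next dimmest. The arrays carried 6 scan times, and no scan time held a group together with the group it was compared with, so scan time and group cannot be told apart in any comparison.

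The cells were checked against marker lists before the lineage genes were read. Of 10 pluripotent cell markers, 10 were well above background on all ES arrays and 7 on all ED arrays, and 8 of 9 tested were lower in ED. Tested markers not well above background on all ED arrays entered only through ES, so their direction is tied to the filter. Zfp42 was well above background on no ED array. Pou5f1, which encodes the pluripotency factor OCT4, fell from a mean level of 6.7 in ES to -3.6 in ED, and Zfp42, Dppa5a and Utf1 moved the same way. Chosen after its value was seen, Sox2 had a level of 4.7 in ES and 2.3 in ED and was well above background on all 3 ED arrays, although the labels list it among the markers lost. Of 12 fibroblast or mesenchymal cell markers, 8 of 11 tested were higher in ED and 2 were lower, and Col1a1, Vim and S100a4 were at 7.2, 7.4 and 6.9 in ED. The summed signal of that list, in multiples of the array's 75th percentile, ranged from 61.5 to 74.4 in ES and from 480 to 607 in ED. The part of these cells in the values below was not tested.

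**Figure D1:**
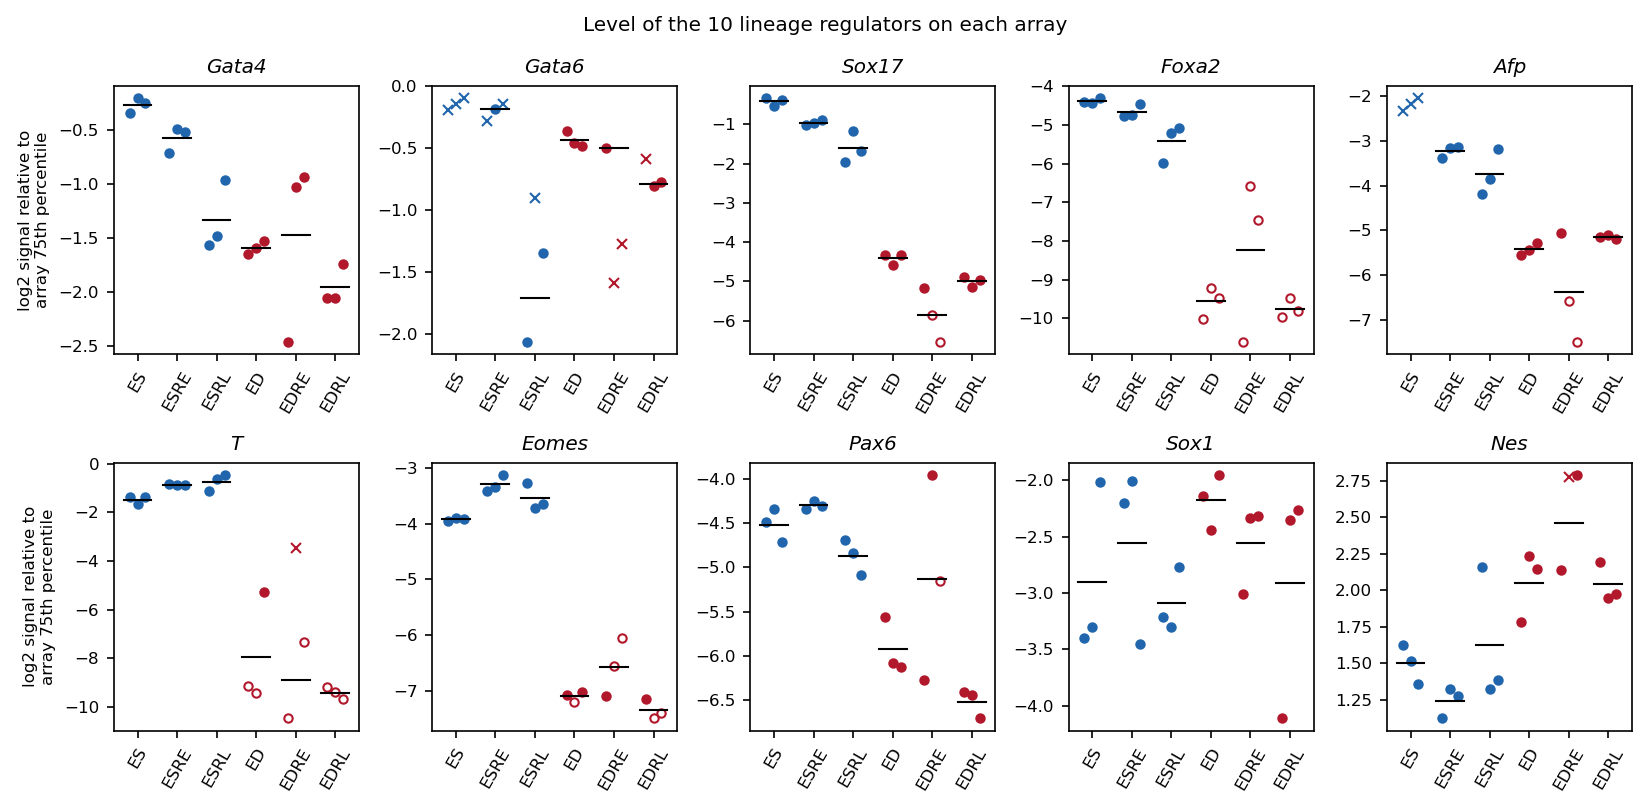
Level of each of the 10 lineage regulators on every array, as log2 signal relative to the array's 75th percentile (vertical axis, own scale in each panel), for the 6 groups in blue (ES-derived) and red (ED-derived). Filled circles are spots well above background, open circles are spots that were not, crosses are spots the scanner software marked as outliers, and bars are means over the arrays whose spots were not so marked. Foxa2, T, Eomes, Sox17 and Afp were high in all ES-derived groups and low in all ED-derived groups, and the arrays of Sox1 overlapped between them.

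Promoter sequence was at hand from RefSeq (GRCm38.p6) for 7 of the 10 genes, in 10 windows, and was read over the 250 bases before each annotated start. The windows of the mesoderm pair T and Eomes are shown because both genes separated the cell types. Beside them are that of Afp, an endoderm gene whose window held 1 CG, and that of Nes, which was not lower in ED cells. Capitals mark 3 patterns searched on both strands. The first is the CG dinucleotide, the second the TATA box motif TATAAA. The last is AGATAA, to which GATA factors can bind.
T, chr17:8434173-8434422, plus strand: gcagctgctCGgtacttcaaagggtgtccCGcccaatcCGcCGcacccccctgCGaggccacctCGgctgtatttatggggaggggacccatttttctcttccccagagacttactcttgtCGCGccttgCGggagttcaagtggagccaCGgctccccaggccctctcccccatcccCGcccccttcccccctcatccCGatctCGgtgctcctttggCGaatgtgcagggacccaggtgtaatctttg
Eomes, chr9:118477939-118478188, plus strand: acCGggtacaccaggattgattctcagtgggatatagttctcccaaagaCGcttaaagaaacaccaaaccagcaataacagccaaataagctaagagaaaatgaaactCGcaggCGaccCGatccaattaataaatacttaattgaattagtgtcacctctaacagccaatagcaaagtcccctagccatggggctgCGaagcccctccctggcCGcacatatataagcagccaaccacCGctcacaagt
Afp, chr5:90490464-90490713, plus strand: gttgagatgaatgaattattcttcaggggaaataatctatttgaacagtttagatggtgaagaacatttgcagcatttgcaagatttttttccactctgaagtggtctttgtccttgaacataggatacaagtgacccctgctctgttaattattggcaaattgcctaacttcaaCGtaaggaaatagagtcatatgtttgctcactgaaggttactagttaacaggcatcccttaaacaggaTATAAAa
Nes, chr3:87970843-87971092, plus strand: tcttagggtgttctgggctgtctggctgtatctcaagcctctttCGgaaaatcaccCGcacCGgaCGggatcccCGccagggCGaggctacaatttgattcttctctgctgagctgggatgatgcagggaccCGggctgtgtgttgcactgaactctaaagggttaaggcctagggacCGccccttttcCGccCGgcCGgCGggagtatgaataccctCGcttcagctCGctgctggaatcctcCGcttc
The T window held 14 CG, the Eomes window 8, the Nes window 15 and the Afp window 1, against a median of 6 with quartiles of 2 and 16 over 32851 windows of the same length. Sox1, at 29, had more CG than any other window of these genes, and its window held as many as or more than 94.1% of all windows. The TATA box motif was in the Afp window, 7 bases before the annotated start, and in 1 of 3 Foxa2 windows, where all windows hold it in 12.4% of cases. The GATA motif was in that Foxa2 window and in none of the windows printed, against 9.99% of all windows. A match is a description of these letters and says nothing of whether a factor binds.

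The first question was how the lineage regulators differ between ES cells and the ED cells derived from them. In ED against ES, 8 of the 10 genes could be tested, and 6 were lower (Gata4, Sox17, Foxa2, T, Eomes and Pax6), 0 higher and 2 (Sox1 and Nes) did not pass. For all probes tested in that comparison 26.6% were called lower and 15.1% higher. The median log2 difference of the 8 genes was -2.29, or -2.23 with Foxa2 set at its bound, beside -0.19 over all probes. All 3 ES spots of Gata6 and of Afp were marked as outliers by the scanner software, so neither has a value against ES unless those spots are kept. With them kept, limma gave a log2 difference of -3.24 ± 0.43 (SE) for Afp (adjusted p = 1.03e-05) and of -0.29 ± 0.28 for Gata6 (adjusted p = 0.435).

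T encodes brachyury, the T-box factor of the primitive streak and notochord. Its level was -1.37, -1.67 and -1.39 on the ES arrays and -9.13, -9.45 and -5.29 on the ED arrays. Only replicate 3 of ED was well above background, and that array too lay far below the lowest ES array. The limma difference was -6.48 ± 0.90 (SE, n = 3 and 3, adjusted p = 3.22e-05). Without replicate 3 of ED no measured ED spot remained, and the size of the difference rests on spots near background. With scan time as a random block the difference was -6.60 with an adjusted p of 0.0831, so the call was lost and the size was not.

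Eomes encodes eomesodermin, a second T-box factor of the streak that trophoblast also uses. It was at -3.96, -3.90 and -3.92 on the ES arrays and at -7.07, -7.19 and -7.02 on the ED arrays, of which 2 were well above background. The replicates lay close together, with SDs of 0.03 and 0.09, and the groups did not overlap. The difference was -3.17 ± 0.22 (SE, limma adjusted p = 1.07e-08).

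Among the endoderm genes, Sox17, an HMG-box factor needed for definitive endoderm, lay at -0.33, -0.54 and -0.37 in ES and at -4.32, -4.58 and -4.34 in ED. It stayed well above background on all ED arrays, so its difference of -4.00 ± 0.27 (SE, limma adjusted p = 9.91e-09) was measured on both sides. Foxa2, a forkhead pioneer factor of endoderm, node and floor plate, was at -4.42, -4.43 and -4.31 in ES. No ED array had Foxa2 well above background, and its ES mean was at least 8.33-fold the level that could be measured in ED (limma adjusted p = 1.38e-05). Such a bound sets the ES mean against the higher of the dimmest measurable signal and the spot's own signal on each ED array.

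Afp, the fetal serum protein made by visceral endoderm and fetal liver, was at -2.33, -2.18 and -2.04 on the ES arrays and at -5.55, -5.44 and -5.29 on the ED arrays, with the ES spots all marked as outliers. The groups did not overlap, and the ED spots were all well above background. Gata4, a zinc finger factor of extraembryonic endoderm and heart, fell less far. Its levels were -0.34, -0.20 and -0.24 in ES and -1.65, -1.59 and -1.53 in ED, a difference of -1.33 ± 0.31 (SE, limma adjusted p = 0.00207). Scaling each array to its median instead gave -0.68, which was not counted, and with scan time as a random block it was -1.45 and not counted (adjusted p = 0.0798).

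Gata6, its close relative in extraembryonic endoderm, had nearly the same level in ED as in ES. It was at -0.19, -0.15 and -0.10 on the ES arrays, all outlier spots, and at -0.36, -0.46 and -0.48 on the ED arrays. The ED arrays were all slightly lower. The sign of this difference rested on the scaling, since the deposited log2 values of the same spots gave 0.36 (adjusted p = 0.285).

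Of the ectoderm genes, Pax6 encodes a paired box factor of the eye and forebrain. It lay at -4.48, -4.34 and -4.72 in ES and at -5.56, -6.08 and -6.13 in ED, with no overlap. The difference of -1.41 ± 0.40 (SE, limma adjusted p = 0.00744) was not counted with normexp background correction, median or quantile scaling or scan time as a random block, where it lay between -1.35 and -0.65.

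Nes encodes nestin, an intermediate filament of neural progenitors that is also made outside the nervous system. It was at 1.62, 1.51 and 1.36 in ES and at 1.78, 2.23 and 2.14 in ED, so every ED array was above every ES array. The difference of 0.55 ± 0.23 (SE) did not pass limma's test (adjusted p = 0.0623), but with median scaling it was 1.20 and was counted as higher (adjusted p = 0.002). Sox1, an early factor of the neural plate, had the widest spread within ES, at -3.40, -3.30 and -2.01. Its ED levels of -2.14, -2.44 and -1.95 overlapped with these, the difference was 0.73 with a 95% interval from -0.35 to 1.81 (limma adjusted p = 0.255), and median scaling moved it to 1.37, where it was counted as higher (adjusted p = 0.028).

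Scaling matters for the whole comparison, since the median of all probes was -0.19 with the 75th percentile, 0.46 with median scaling and 0.22 with quantile normalization. Of all probes called, 36.2% were higher in ED in the first case, 59.1% in the second and 51.3% in the third. Under each of these, and with normexp background correction, Sox17, Foxa2, T and Eomes were lower in ED and were counted.

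**Figure D2:**
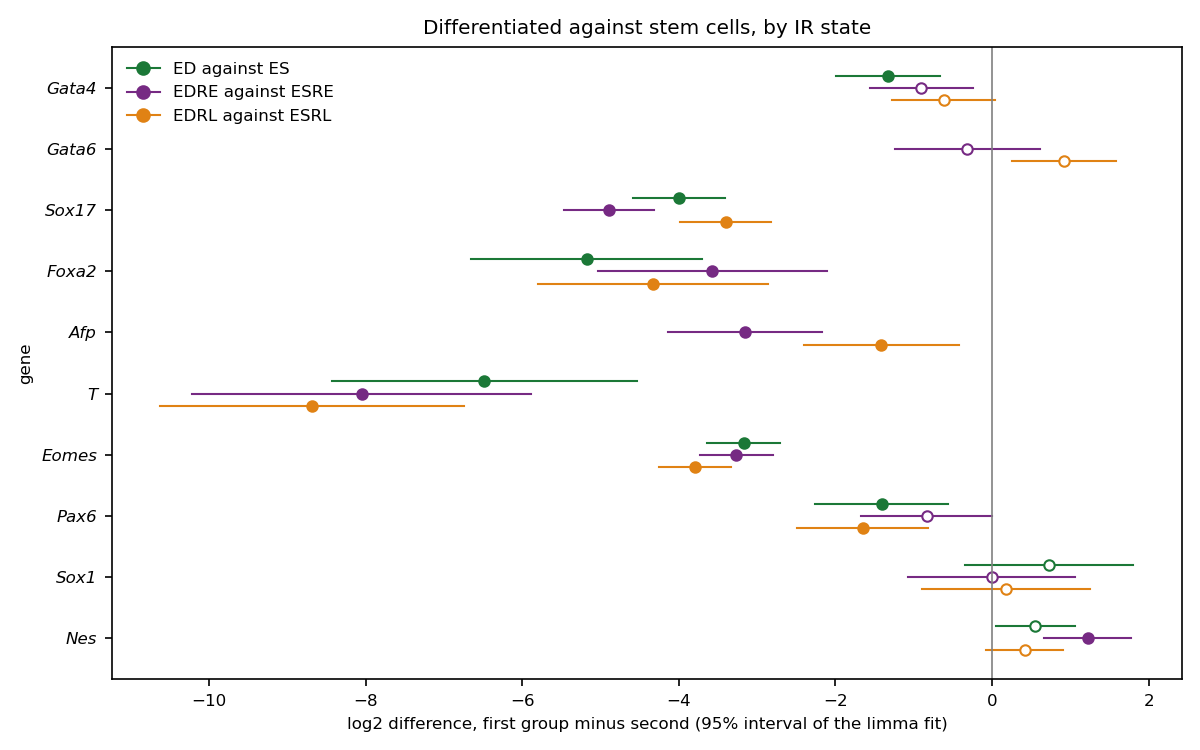
Log2 difference of each lineage regulator between ED-derived and ES-derived cells (horizontal axis, with the 95% interval of the limma fit), for unirradiated cells (green), cells at 15 min after IR (purple) and cells at 4 h (orange). Filled circles were counted as higher or lower and open circles were not, Gata6 and Afp have no value in unirradiated cells because their ES spots were outliers, and the values of Foxa2 and T rest on spots near background. Sox17, Foxa2, T and Eomes lay below 0 with all 3 pairs of groups.

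The same question was asked of irradiated cells, whose arrays are separate from those above. At 15 min, 5 of 10 genes tested were lower in EDRE than in ESRE (Sox17, Foxa2, Afp, T and Eomes) and 1, Nes, was higher, where all probes gave 27.7% lower and 18.8% higher. The 10 include Gata6, which had 1 usable array in each of these groups and takes its spread from the other groups. At 4 h, 6 of 10 were lower in EDRL than in ESRL, the same 5 and Pax6, with 0 higher, where all probes gave 24.9% lower and 24.1% higher. The medians of the 10 genes were -2.03 and -1.53, beside -0.17 and 0.06 over all probes, and the first was -1.31 with Foxa2 and T at their bounds. Sox17, Foxa2, T and Eomes were thus counted as lower in differentiated cells in all 3 of these comparisons. Their group means share no array, but the spread behind every p-value came from the same limma fit of all groups. Scan times were shared as well, with ED and replicate 3 of ESRE on the same one, so these are not independent tests. Foxa2, T and Eomes entered these comparisons only through the ES-derived groups, where they are high, so their direction there is tied to the filter. At 15 min this also holds for Sox17 and Afp, each well above background on 1 EDRE array, and so for all 5 genes lower there. With a stricter filter, which both groups of a comparison had to meet, the genes counted were 3, 1 and 3 in the 3 comparisons. The 1 at 15 min was Nes, which was higher, so no gene was counted as lower there.

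T was at -0.84, -0.87 and -0.87 in ESRE and not well above background on the 2 EDRE arrays whose spots were not outliers, a difference of at least 74.4-fold (limma adjusted p = 9.48e-06). Its EDRE replicate 2, an outlier spot, was at -3.47. In ESRL it was at -1.14, -0.63 and -0.45, at least 108-fold above what could be measured in EDRL (adjusted p = 1.35e-06), where no array was well above background. T was therefore measured on all 9 ES-derived arrays and, apart from that outlier spot, on 1 of the ED-derived arrays.

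Eomes was at -3.42, -3.34 and -3.12 in ESRE and -7.08, -6.56 and -6.04 in EDRE, and at -3.27, -3.72 and -3.66 in ESRL and -7.14, -7.49 and -7.40 in EDRL. In EDRE and in EDRL 1 array each was well above background. The differences were -3.26 ± 0.22 and -3.79 ± 0.22 (SE, limma adjusted p = 5.28e-09 and 9.45e-10). With normexp background correction the first was -0.64 and was not counted (adjusted p = 0.258).

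Sox17 was at -1.02, -0.97 and -0.89 in ESRE and -5.16, -5.86 and -6.54 in EDRE, where only replicate 1 was well above background. At 4 h it was at -1.95, -1.16 and -1.67 in ESRL and -4.89, -5.13 and -4.96 in EDRL, all measured. The differences were -4.89 ± 0.27 and -3.40 ± 0.27 (SE, limma adjusted p = 7.31e-10 and 4.27e-08). Foxa2 was at least 3.29-fold lower in EDRE than in ESRE (adjusted p = 0.000388) and at least 4.19-fold lower in EDRL than in ESRL (adjusted p = 6.22e-05), with no ED-derived array well above background. With normexp correction neither was counted, at log2 differences of 0.00 (adjusted p = 0.999) and -1.08 (adjusted p = 0.0948), and the methods' t-test did not count the first (adjusted p = 0.0919).

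Afp was at -3.37, -3.16 and -3.13 in ESRE and -5.05, -6.59 and -7.50 in EDRE, where again replicate 1 alone was well above background. It was at -4.18, -3.85 and -3.18 in ESRL and -5.15, -5.11 and -5.19 in EDRL. The differences were -3.16 ± 0.45 and -1.42 ± 0.46 (SE, limma adjusted p = 5.49e-05 and 0.0164), and with normexp correction the first was -0.54 (adjusted p = 0.222) and not counted. The second was not counted without replicate 3 of ESRL (-1.14), nor with median scaling (-0.93), quantile normalization (-0.91) or the deposited log2 values (-0.93).

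The GATA factors and the ectoderm genes varied more with the arrays used. Gata4 was at -0.72, -0.49 and -0.52 in ESRE and -2.47, -1.03 and -0.93 in EDRE, so the 2 EDRE arrays that stood apart lay nearer to ESRE than replicate 1 did. The difference was -0.90 ± 0.31 (SE, limma adjusted p = 0.0204), too small to be counted, and -1.89 without those arrays. Gata6 was at -0.28, -0.19 and -0.14 in ESRE and -0.50, -1.59 and -1.27 in EDRE, with all but 1 spot in each group marked as outliers. Its difference was -0.32 ± 0.39 (SE, adjusted p = 0.527) and, with outlier spots kept, -0.92 ± 0.28 (adjusted p = 0.00944), neither large enough to be counted. Pax6 moved as Gata4 did, at -0.83 with all arrays and -1.98 without replicates 2 and 3 of EDRE. Nes went the other way, at 1.22 ± 0.26 (SE, limma adjusted p = 0.001) with all arrays and at 0.90 without them, when it was no longer counted. With scan time as a random block Nes was at 1.00 and was not counted (limma adjusted p = 0.0582).

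At 4 h Gata4 was at -1.57, -1.49 and -0.96 in ESRL and -2.06, -2.06 and -1.75 in EDRL, a difference of -0.62 with a 95% interval from -1.27 to 0.04. Gata6 was at -2.07, -0.90 (an outlier spot) and -1.35 in ESRL and at -0.59 (an outlier spot), -0.80 and -0.77 in EDRL, the only endoderm gene that was higher in the ED-derived arrays. Its difference was 0.92 ± 0.28 (SE, limma adjusted p = 0.0251), just short of the size counted, and it was 1.27 with median scaling, 1.05 with quantile normalization and 1.28 without replicate 3 of ESRL. Pax6 fell by 1.65 on the log2 scale at this time (SE 0.39, adjusted p = 0.00204), but was not counted with normexp correction (-0.84, adjusted p = 0.182) or scan time as a random block (-0.92, adjusted p = 0.331).

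Sox1 showed no difference that could be told from its spread. Its ESRE levels were -2.20, -2.002 and -3.45 and its EDRL levels -4.11, -2.35 and -2.27, so a single array in each of these groups and in ES lay over 1 unit from the other two. The 95% interval of its difference ran from -1.07 to 1.07 between EDRE and ESRE and from -0.89 to 1.25 between EDRL and ESRL.

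The second question was what IR did to these genes within each cell type. ES cells at 15 min gave 0 of 8 genes counted, where all probes gave 0.305% higher and 0.158% lower. Eomes alone had an unadjusted p under 0.05 in limma, against 4 genes with the methods' t-test, of which 0 stayed after adjustment. The ESRE and ES arrays did not overlap for Gata4, Sox17, Foxa2 and Nes, lower in ESRE, nor for T, Eomes and Pax6, higher in ESRE. For Pax6 the highest ES array and the lowest ESRE array were both at -4.34. The share of all probes without overlap was not counted, so no result about these genes is drawn from it. With outlier spots kept, Afp was also lower on all ESRE arrays, by -1.04 ± 0.43 (SE, adjusted p = 0.483), and Gata6 differed by -0.06. The largest of the 7, 0.63 ± 0.22 (SE) for Eomes, had a limma adjusted p of 0.298, and the ES arrays were scanned apart from all others. For T the levels moved from a mean of -1.47 ± 0.17 (SD) to -0.86 ± 0.02, and the 95% interval of the difference ran from -1.33 to 2.56.

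ES cells at 4 h gave 2 of 8 genes lower, Gata4 and Sox17, and 0 higher, where all probes gave 6.34% lower and 0.69% higher. Gata4 was at -1.57, -1.49 and -0.96 in ESRL against -0.34, -0.20 and -0.24 in ES, a difference of -1.07 ± 0.31 (SE, limma adjusted p = 0.0437). Sox17 differed by -1.18 ± 0.27 (SE, adjusted p = 0.0169). The ESRL arrays lay below all ES arrays for both genes. Neither call was firm. Gata4 was no longer counted without any of 14 of the 18 arrays taken singly, and Sox17 without replicate 1, 2 or 3 of ES or replicate 1 of ESRL, while their differences lay between -1.40 and -0.96. Without replicate 1 of EDRE, Foxa2 was counted as lower in ESRL as well.

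With outlier spots kept, Gata6 and Afp could be compared with ES as well. Gata6 was lower in ESRL by -1.30 ± 0.28 (SE, limma adjusted p = 0.0127) and Afp by -1.55 ± 0.43 (adjusted p = 0.041), and Gata4 was then not counted (adjusted p = 0.052). The deposited log2 values put these at -0.98 and -1.24, neither counted. Foxa2 differed by -1.04 with a 95% interval from -2.51 to 0.43. The endoderm genes followed here thus all had lower means in ESRL than in ES, with 2 of the 3 testable ones counted. T and Eomes had higher means, by 0.74 and 0.38, with intervals that included 0. Of the other endoderm genes listed below, 0 of 13 tested were counted in ESRL. Their means moved both ways, higher for Foxa1 and Hnf4a and lower for Sox7 and Cubn among them, with a median difference of -0.67 beside -0.16 over all probes.

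**Figure D3:**
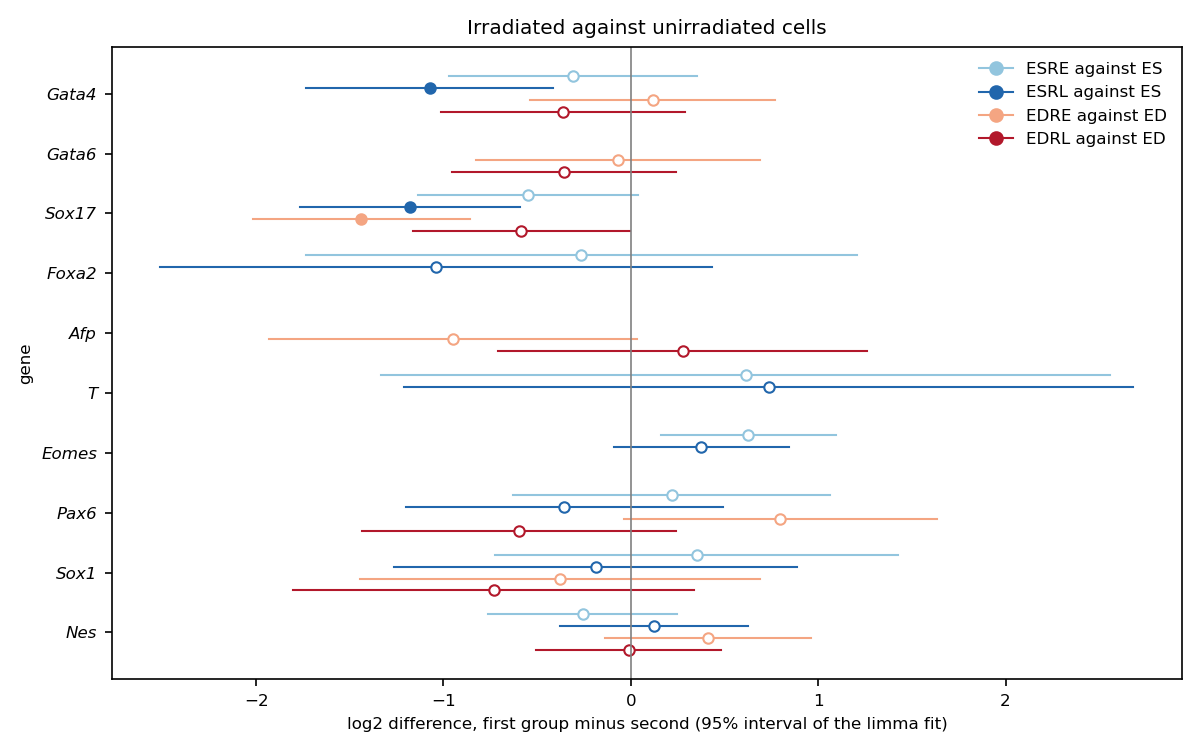
Log2 difference of each lineage regulator between irradiated and unirradiated cells (horizontal axis, with the 95% interval of the limma fit), for ES cells at 15 min (light blue) and 4 h (dark blue) and ED cells at 15 min (salmon) and 4 h (dark red). Filled circles were counted and open circles were not, the 2 comparisons of a cell type share their unirradiated arrays, and genes without a circle were not tested. Gata4 and Sox17 in ESRL and Sox17 in EDRE are the filled circles.

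ED cells at 15 min gave 1 of 7 genes lower, Sox17, and 0 higher, where all probes gave 2.74% lower and 2.1% higher. Sox17 was at -4.32, -4.58 and -4.34 in ED and -5.16, -5.86 and -6.54 in EDRE, where only replicate 1 was well above background. It was thus tested only through ED, where it is higher, which ties its direction to the filter. The difference was -1.44 ± 0.27 (SE, limma adjusted p = 0.0111). Without replicates 2 and 3 of EDRE it was -0.74 (adjusted p = 0.165), and with normexp background correction 0.48. Without replicate 1 of EDRE, Afp (-1.61) and Pax6 (1.37) were counted too, and without replicate 1 of ED no gene was. Afp had a mean of -6.38 ± 1.24 (SD) in EDRE against -5.43 ± 0.13 in ED, and its single measured EDRE array, at -5.05, lay above all ED arrays. T, Eomes and Foxa2 were too dim in both groups to be tested.

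ED cells at 4 h gave 0 of 7 genes counted, where all probes gave 1.38% higher and 0.236% lower. In limma only Sox17 had an unadjusted p under 0.05, while the methods' t-test gave 5 genes unadjusted and 1 after adjustment. Gata4, Gata6, Sox17 and Pax6 were lower on all EDRL than on all ED arrays, and Afp was higher, but the share of all probes so separated was not counted. The largest difference without overlap was -0.60 for Pax6, with a 95% interval from -1.43 to 0.24, and that of Sox17 was -0.59, from -1.16 to -0.01 (adjusted p = 0.353).

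Whether IR acted differently on the cell types was tested as an interaction. At 15 min and at 4 h 0 of 8 genes passed in limma, with 1 (Sox17) and 0 at an unadjusted p under 0.05, where 1.98% and 1.07% of all probes passed. For Gata4 at 4 h the interaction was 0.71 with a 95% interval from -0.22 to 1.65. Foxa2, T and Eomes were too dim in ED cells for their interactions to be read, and with the stricter filter on background 3 and 5 genes could be tested and 0 passed. Without replicate 1 of EDRE, when only the EDRE arrays that stood apart remained, Pax6 and Sox17 passed at 15 min, as did Foxa2, which has no measured spot in ED or EDRE.

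The other genes of the lineages were read from lists of 16 endoderm, 20 mesoderm and 20 neuroectoderm genes, all of them on the array. In ED against ES, 10 endoderm genes were lower and 1 higher of 13 tested, 11 mesoderm genes lower and 3 higher of 19, and 13 neuroectoderm genes lower and 2 higher of 18. The medians were -2.69, -2.62 and -1.25, or -1.67, -1.53 and -1.15 with genes too dim to measure set at their bounds, beside -0.19 for all probes. On the ED arrays 6, 11 and 9 genes of the 3 lists were well above background on all 3, and 5, 7 and 7 on none. Tested genes not well above background on all ED arrays entered only through ES, so their direction is tied to the filter. With quantile normalization the neuroectoderm count fell to 7 lower and 3 higher, and with normexp correction the 3 lists had 7, 9 and 7 genes lower.

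Lama1, a laminin chain of the endoderm basement membrane, had the largest fall of the endoderm list and was at least 3283-fold lower in ED (limma adjusted p = 4.26e-09). Its ES signals were between 54475 and 65294, with 1 outlier spot left out, and no ED array was well above background. Sox7 and Hhex, transcription factors of endoderm, followed with -5.20 ± 0.37 and -5.10 ± 0.28 (SE), each with 1 of 3 ED arrays well above background. Dab2, an endocytic adaptor of extraembryonic endoderm that mesenchymal cells also make, was the one gene that rose, by 2.16 ± 0.31, with all 4 of its probes counted.

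Of the mesoderm list, Mesp2 and Isl1, factors of presomitic and cardiac mesoderm, were at least 63.4-fold and 23.4-fold lower in ED, and Wnt3, a ligand that induces the streak, fell by 5.78 ± 0.73 (SE) on the log2 scale with 1 ED array well above background. The genes that rose were Tbx5, a T-box factor of heart and forelimb, at 5.95 ± 0.47, Pdgfra, a growth factor receptor of mesenchyme, at 3.96 ± 0.26, and Twist1, a mesenchymal transcription factor, at 3.85 ± 0.18. The summed signal of the mesoderm list was therefore higher in ED, from 24.6 to 33.4 multiples of the array's 75th percentile against 9.64 to 10.9 in ES, although more of its genes fell than rose.

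Of the neuroectoderm list, Otx2, a homeobox factor of epiblast and forebrain, was at least 839-fold lower in ED, Sox3, a close relative of Sox1, fell by 6.73 ± 0.18 (SE) and Hes5, a Notch target of neural progenitors, was at least 10.4-fold lower. Pax3, a paired box factor of neural crest and muscle, rose by 1.67 ± 0.35, with both of its probes counted.

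**Figure D4:**
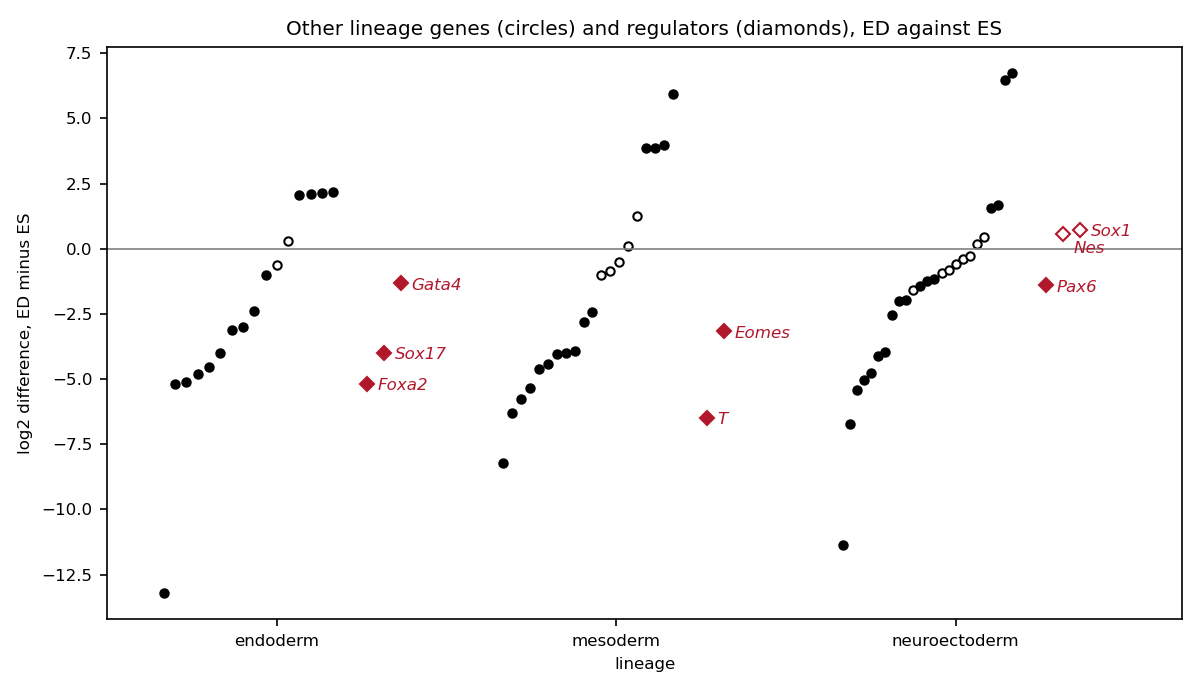
Log2 difference between ED and ES (vertical axis) of the probes of the other lineage genes (black circles, ordered by value) and of the 8 lineage regulators that could be tested (red diamonds), by lineage. Filled symbols were counted as higher or lower and open ones were not, and the lowest circles of each lineage (Lama1, Mesp2 and Otx2) rest on ED spots not well above background. Most probes lie below 0 in each lineage, with Dab2, Tbx5, Pdgfra, Twist1 and Pax3 among those above it.

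After IR few of these genes moved. In ESRE 0 of the 14 endoderm, 19 mesoderm and 18 neuroectoderm genes tested were counted. In ESRL Pdgfra (-1.40 and -1.16 for its 2 probes) and Hand2, a factor of heart and limb mesenchyme (-1.73 ± 0.44, SE, limma adjusted p = 0.0261), were lower. With normexp correction the mesoderm list gave 0 genes lower in ESRL, and with quantile normalization 2 higher and 2 lower. With scan time as a random block 0 probes of the whole array were called in ESRL against ES. In EDRE 1 of 4 probes of Dab2 was higher (1.16 ± 0.32, adjusted p = 0.043), while quantile normalization gave the endoderm list 0 genes higher and 1 lower there. In EDRL Mesp2 exceeded its measurable ED level by at least 2.41-fold (adjusted p = 0.016). Mesp2 was well above background on no ED array and was tested only through EDRL, so its direction is tied to the filter. With normexp correction the mesoderm list gave 0 genes higher in EDRL. Pdgfra, Hand2, Dab2 and Mesp2 were named after their values were seen because the counts were small.

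Markers of other cell types moved with the differences between ES and ED. Of 9 trophoblast markers, 7 of 8 tested were lower in ED, and of 11 surface ectoderm markers 9 were lower and 1 higher. Their summed signals ranged from 38.1 to 43.4 and from 180 to 197 in ES and from 2.997 to 3.43 and from 0.55 to 0.62 in ED. Of 10 endothelial or blood cell markers, 6 of 9 tested were lower and 3 higher, and the summed signal rose from 6.24 to 7.65 in ES to between 71.8 and 90.7 in ED, of which Cd34 had a level of 6.4 alone. Of the trophoblast list, Hand1 is also on the mesoderm list and Tfap2c on the surface ectoderm list. On all ED arrays 6 trophoblast, 6 surface ectoderm and 5 endothelial or blood cell markers were well above background. The others tested entered only through ES, so their direction is tied to the filter. The pluripotent cell list had a summed signal of 590 to 599 in ES and 17.5 to 23.0 in ED. It was 688 to 807 in ESRE, above all ES arrays, and 539 to 579 in ESRL, below them. In EDRE it was 20.1 to 32.6 and in EDRL 16.1 to 22.0. After IR the marker lists gave 0 genes counted in ESRE and ESRL, and Tfap2c and Pou5f1 lower in EDRE and Tek higher in EDRL, named after their values were seen. The falls in EDRE depend on the processing. With normexp background correction the lists that hold Tfap2c and Pou5f1 each gave 0 genes lower and 1 higher there. The part of these cells in the values of the lineage regulators was not tested.

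To set each gene beside the rest of the array, the 19746 named probes well above background in some group were ranked by Pearson's r with it over the 18 arrays, as a description only. The ES-derived and ED-derived arrays lay apart for most of these genes, and r then follows that split. Slc35d3 and Crmp1 were nearest to Eomes (0.995 and 0.994), Osm and Rasef to T (0.994 and 0.989), Akr1c12 and Lpar3 to Foxa2 (0.995 and 0.994), and Slc19a3 and Zfp57 to Sox17 (both 0.992). Each of these 4 had between 2441 and 3588 probes with r over 0.9. Spats1 and Ch25h were nearest to Afp (0.969 and 0.966), Cux2 and Prune1 to Pax6 (0.965 and 0.964), and Plekho1 and C030006K11Rik to Nes (0.975 and 0.971). Gata4 (Cd8a and Elf3, 0.948 and 0.945) and Gata6 (Cacng8 and Rab5a, 0.938 and 0.924) had 25 and 8 probes over 0.9, and Sox1 (Gpr119 and Olfr1277, 0.853 and 0.841) had 0.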

How the data were processed

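RNA of 18 samples was hybridized to 1-colour Agilent arrays. Per the file headers, the authors deposited background-subtracted spot intensities (gProcessedSignal) made with Agilent Feature Extraction 10.7.3.1, where the submitters' processing notes name version 9.1. They also deposited a table of log2 values, which on 30075 probes equalled (to within 0.05) the log2 intensity with a floor of 5 and a shift per array, and which served as an alternative. Of 39448 spots, 37831 were kept after removal of 1417 marked as controls and of 200 negative controls that lacked the mark. Log2 intensities were set relative to the 75th percentile of each array, outlier spots were left out, and spots of a probe were averaged over 37246 probes, of which 22216 were named through RefSeq by accession. Arrays have no read depth. Between 49.5% and 86.1% of probes per array were well above background, and precision is limited by having 3 arrays a group.

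Probes entered a test if all 3 arrays of one of the groups compared had them well above background. limma 3.58.1 in R 4.3.3 fitted all 6 groups together, without a replicate block, and contrasts gave the comparisons and the interactions. Called genes had a log2 difference over 1 in size and, after Benjamini-Hochberg adjustment, a p under 0.05. The calculation was tested on simulated data. The methods' t-test was an alternative, as were other background corrections, scalings, filters, blocks and the removal of each array.

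The 10 genes and the lists were chosen with earlier results of these data known. Named were all 10 genes, the called list genes with up to 3 largest rises and falls in ED against ES, up to 4 of the brightest markers of a cell type list and the 2 genes with the highest Pearson r with each of the 10. Same-numbered replicates did not deviate together (r from -0.43 to 0.30), so the numbers were not taken as pairs. A gene that this rule named is not reported here.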

Additional observations from a re-analysis of the deposited data

How the results depend on the processing

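Of the alternatives run, 2222 values kept their direction and their side of the threshold, 60 fell short of it, 23 newly passed it and 2 reversed. Both reversals came with normexp background correction, at 0.00098 for Foxa2 in EDRE against ESRE and 0.48 for Sox17 in EDRE against ED. The 6 genes counted in ED against ES became 3 where a gene had to be well above background in both groups, which leaves out Foxa2, T and Eomes, and 3 with scan time as a random block (consensus correlation 0.81). The 6 counted in EDRE against ESRE became 3 with normexp correction and 1 (Nes, higher) with the stricter filter, and the 6 in EDRL against ESRL became 3 with that filter. The 2 counted in ESRL against ES became 0 with normexp correction, median scaling, scan time as a block, the groups fitted alone, the methods' adjusted t-test or the deposited log2 values, and 1 with no filter on dim probes or with the stricter filter. The 1 counted in EDRE against ED became 0 with normexp correction, the stricter filter, scan time as a block, the groups fitted alone, the adjusted t-test or without EDRE replicates 2 and 3, an alternative chosen after seeing the data. Leaving out 1 array at a time gave 0 to 3 in ESRL against ES, 0 to 3 in EDRE against ED and 0 to 3 for the interaction at 15 min. The cause of these changes was not tested beyond what each alternative leaves out. With the replicate number as a block the counts were 6, 6 and 6 for the comparisons between cell types, 0 and 2 for ESRE and ESRL against ES and 1 and 0 for EDRE and EDRL against ED, as without it, and the numbers were not shown to pair the samples. The alternative of other probes of a gene was not run, since each gene had 1 probe. Genes near background (Foxa2, T and Eomes in ED-derived cells, and Sox17 and Afp in EDRE) have the least certain sizes.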
